A study of Mus musculus with 24 samples.

Results

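Collagen must be folded, modified, trimmed and cross-linked before it can form a durable scar, and 10 genes of that sequence of steps were followed in mouse liver RNA. They were taken by symbol from a table of 14293 protein-coding genes. They encode the lysyl oxidases Lox, Loxl1 and Loxl2, the lysyl hydroxylases Plod1, Plod2 and Plod3, the prolyl 4-hydroxylase alpha subunits P4ha1 and P4ha2, the collagen chaperone Serpinh1 (also known as HSP47) and the procollagen C-proteinase Bmp1. Serpinh1 is a chaperone and not an enzyme. All 10 had a row, and 9 of them reached at least 0.5 FPKM in at least 8 samples, the minimum set for a test. FPKM counts sequenced fragments per transcript length and per library size, so that levels of different genes can be set side by side.

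The samples were 24 livers of mice with NASH (nonalcoholic steatohepatitis, in which a fatty liver becomes inflamed and scarred), 8 treated with vutiglabridin, 8 with semaglutide and 8 with vehicle. Vutiglabridin is a small molecule derived from glabridin, a compound of licorice root, and the series describes it as an agonist of paraoxonase-2. Semaglutide is a peptide agonist of the GLP-1 receptor. The labels name no strain, sex, age, diet, dose, duration or way of inducing the disease, nothing says that samples came from separate animals, and no healthy liver was among the samples analysed, so a p-value here reflects only how far these samples spread, and that spread may be technical. Each group can be read only against the others.

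In a cell that makes collagen, prolyl hydroxylation stabilises the collagen helix, lysyl hydroxylation prepares the sites for sugars and cross-links, and Serpinh1 binds the folded helix on its way out of the endoplasmic reticulum. Outside the cell, Bmp1 removes the C-terminal propeptide so that fibrils can assemble, and lysyl oxidases turn lysine and hydroxylysine side chains into the aldehydes from which cross-links form. In a scarring liver most fibrillar collagen is made by activated hepatic stellate cells and other myofibroblasts, while several of these enzymes are also made by hepatocytes and other cells.

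The low FPKM values lie on the steps that 1 fragment makes, and these steps implied, to 3 significant digits, 6000000 to 15200000 fragments per vutiglabridin library, 9330000 to 12400000 per semaglutide library and 12000000 to 20000000 per vehicle library. Vutiglabridin replicate 7 was the shallowest library, and it had the lowest or joint lowest value of its group for 6 of the 10 genes (Lox, Loxl1, Loxl2, Plod2, P4ha1 and Serpinh1) and the highest for Plod3, P4ha2 and Bmp1. All 114344 cells of the semaglutide columns, and none of the other columns, end in a space, so the semaglutide values may have been handled separately, which the files do not settle. Any such difference in handling cannot be told apart from semaglutide treatment. These are bulk samples, in which fewer cells of a type and less RNA per cell cannot be told apart.

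The genes spanned a wide range of levels. In vehicle livers the order by mean FPKM was Serpinh1 (24.4), Bmp1 (11.2), Plod1 (11.02), Plod3 (7.88), P4ha1 (6.26), Loxl1 (4.65), Loxl2 (2.04), P4ha2 (1.76), Plod2 (0.806) and Lox (0.700). Neighbours in that order overlapped in their 8 values, except that every Serpinh1 value lay above every Bmp1 value, every Plod1 value above every Plod3 value, every Loxl1 value above every Loxl2 value and every P4ha2 value above every Plod2 value. In vutiglabridin livers Bmp1 and Serpinh1 stood level at 13.9 FPKM each, and Loxl2 (1.05) came after P4ha2 (1.60). In semaglutide livers Serpinh1 (15.6) was still the highest, and Loxl2 (0.949) likewise came after P4ha2 (1.43). The lysyl oxidases, Plod2 and P4ha2 were thus low in whole liver, and Lox was at 0.5 FPKM or more in only 7 of the 24 samples.

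**Figure D1:**
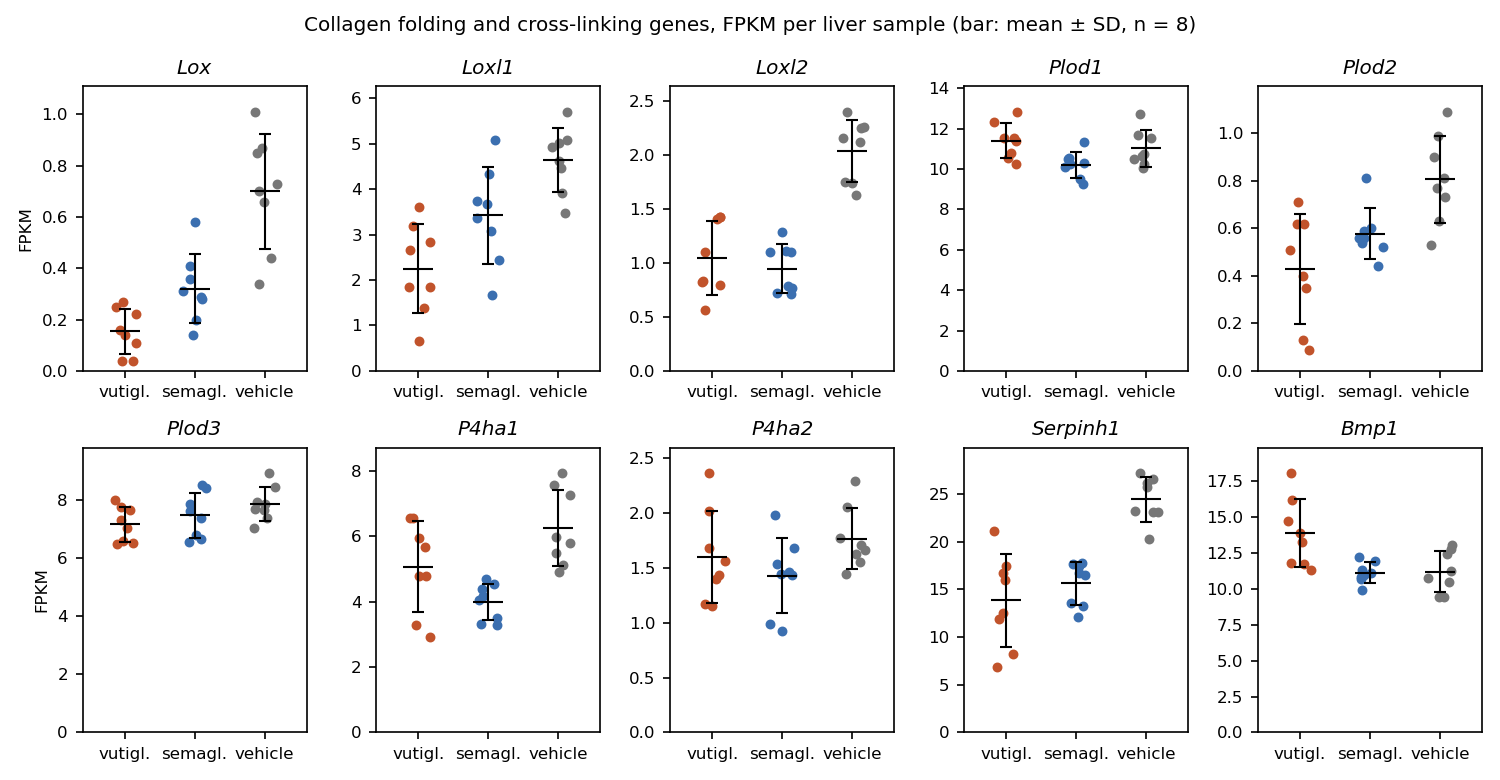
FPKM of each of the 10 genes in every liver sample, with vutiglabridin, semaglutide and vehicle samples from left to right. Points are samples and black bars are the mean ± SD of 8. Loxl2 separates both drug groups from vehicle without overlap, P4ha1 and Serpinh1 separate semaglutide from vehicle, and Lox separates vutiglabridin from vehicle. Lower values without overlap were seen in 0.969% of all tested genes with vutiglabridin and in 1.74% with semaglutide. Lox was below the level set for testing.

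Promoter windows of 5 of the genes (Plod1, Plod3, P4ha1, P4ha2 and Serpinh1) were in the RefSeq table used here (GRCm38.p6), each with 250 bases before the start listed there and 50 after it. The P4ha2 window lies wholly inside that gene as annotated (chr11:54100095-54131665), past its annotated start. It therefore belongs to an internal start, and its motifs are not those of the annotated gene start. The 3 windows below are shown because Serpinh1 was lower than vehicle with both drugs, P4ha1 with semaglutide, and P4ha2, the other alpha subunit, with neither. Capitals mark 4 short motifs on either strand. The core of the hypoxia response element was searched as ACGTG. The box bound by the nuclear factor Y complex was searched as CCAAT. The element bound by Sp1 and its relatives was searched as GGGCGG. The TATA box was searched as TATAAA. The Serpinh1 window is chr7:99353190-99353489 on the minus strand, the P4ha1 window chr10:59323046-59323345 on the plus strand, and the P4ha2 window chr11:54100674-54100973 on the plus strand, each read 5′ to 3′ along its gene.
Serpinh1: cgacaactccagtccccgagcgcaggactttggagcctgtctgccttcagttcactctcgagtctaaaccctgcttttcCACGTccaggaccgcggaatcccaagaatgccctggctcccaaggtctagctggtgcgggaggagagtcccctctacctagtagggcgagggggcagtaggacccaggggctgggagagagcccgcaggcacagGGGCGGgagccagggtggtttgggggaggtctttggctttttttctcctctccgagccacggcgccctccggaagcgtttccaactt
P4ha1: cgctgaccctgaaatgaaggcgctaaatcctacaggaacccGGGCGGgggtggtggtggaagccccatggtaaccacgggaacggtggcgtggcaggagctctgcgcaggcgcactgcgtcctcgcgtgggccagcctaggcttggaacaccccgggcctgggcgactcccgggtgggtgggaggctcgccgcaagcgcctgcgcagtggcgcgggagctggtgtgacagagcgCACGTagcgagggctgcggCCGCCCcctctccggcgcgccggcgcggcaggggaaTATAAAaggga
P4ha2: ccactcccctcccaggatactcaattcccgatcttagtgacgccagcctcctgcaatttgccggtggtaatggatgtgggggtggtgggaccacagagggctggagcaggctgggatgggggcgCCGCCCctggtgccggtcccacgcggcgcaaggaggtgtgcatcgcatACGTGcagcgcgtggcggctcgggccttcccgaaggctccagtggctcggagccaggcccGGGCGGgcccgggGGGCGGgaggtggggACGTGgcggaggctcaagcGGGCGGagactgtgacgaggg

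Serpinh1 and P4ha1 each held 1 ACGTG, and P4ha2 held 2. Of the other windows, Plod3 held 1 ACGTG and Plod1 none, while 19.6% of all 32851 windows of the same length hold it. GGGCGG occurred 4 times in P4ha2, 3 times in Plod1, 2 times in P4ha1, once in Serpinh1 and not in Plod3, against 35.7% of all windows with at least 1. CCAAT occurred in the Plod3 window alone of the 5 (37.4% of all windows) and TATAAA in those of Plod1 and P4ha1 (13.6% of all windows). The P4ha1 match lay at 39, after the start, and the Plod1 match at -232, before the start and on the opposite strand. These are matches to a short string, and whether they act as a TATA box was not tested.

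With vutiglabridin, 4 of the 9 tested genes were lower than with vehicle (Loxl1, Loxl2, Plod2 and Serpinh1), 1 was higher (Bmp1) and 4 did not pass the test (Plod1, Plod3, P4ha1 and P4ha2). Of all 11562 tested genes, 15.3% passed in this comparison, 6.53% higher and 8.78% lower. The median log2 difference over the 9 genes was -0.28, beside 0.01 over all tested genes. With semaglutide, 3 of the 9 were lower than with vehicle (Loxl2, P4ha1 and Serpinh1), none was higher and 6 did not pass, where 27.0% of all tested genes passed, 14.3% higher and 12.7% lower. The median over the 9 was -0.19, beside -0.01 over all tested genes. Between the drugs, 2 of the 9 were higher with vutiglabridin than with semaglutide (Plod1 and Bmp1), 1 was lower (Loxl1) and 6 did not pass, where 24.4% of all tested genes passed, 11.9% higher and 12.6% lower. The test throughout was limma's moderated test on log2(FPKM + 1), fitted to all 24 samples and adjusted by Benjamini-Hochberg over all tested genes. Differences on this scale understate the change of genes near or below 1 FPKM. Both drugs were compared with the same 8 vehicle samples, so their differences from vehicle are not independent of each other. The split of calls over all genes depends on the scaling. With vutiglabridin against vehicle, 755 genes were higher and 1015 lower, but 233 and 2731 once every library was rescaled to the same total (TPM), which moved the median difference of all tested genes to -0.13. With semaglutide against vehicle the split was 1650 higher and 1474 lower, and 1202 and 2116 on the TPM scale, and between vutiglabridin and semaglutide it was 1372 and 1454, and 596 and 2264. Of the 9 genes, 6 were lower and none higher with vutiglabridin than with vehicle on the TPM scale, where Plod3 and P4ha1 passed and Bmp1 did not. With semaglutide 4 were lower on that scale, with Plod1 added.

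**Figure D2:**
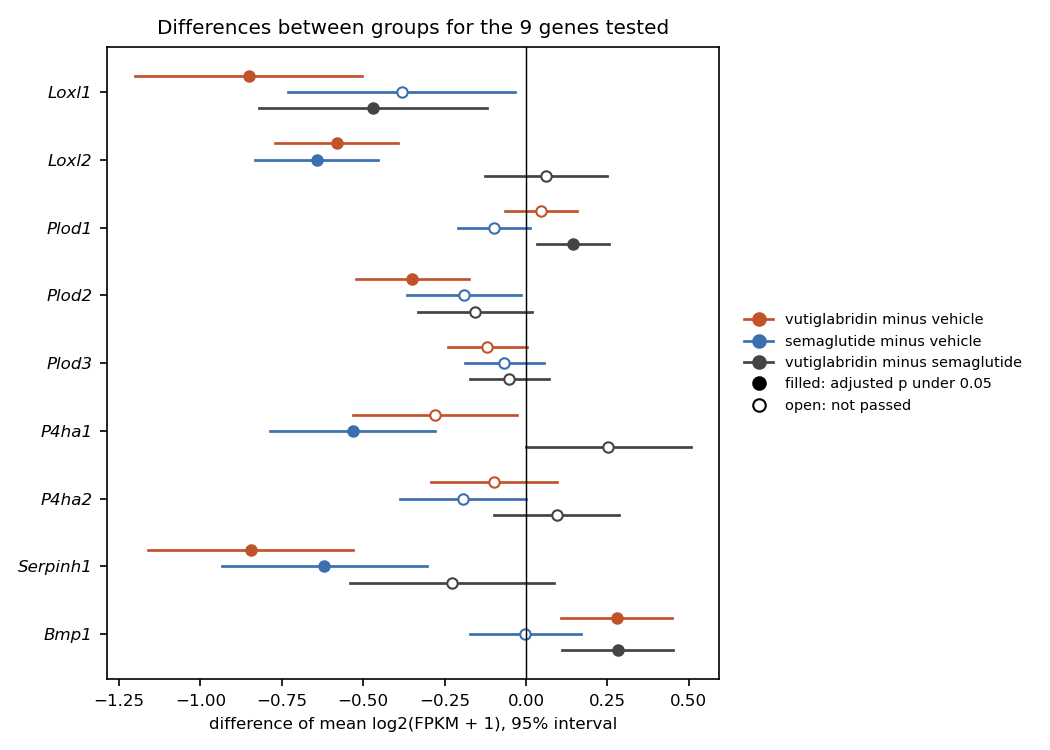
Difference of mean log2(FPKM + 1) and its 95% interval for the 9 tested genes, with vutiglabridin minus vehicle in orange, semaglutide minus vehicle in blue and vutiglabridin minus semaglutide in grey. Filled points passed at an adjusted p under 0.05. Loxl2 and Serpinh1 lie left of 0 with filled points for both drugs, P4ha1 for semaglutide, and Loxl1 and Plod2 for vutiglabridin; Bmp1 lies right of 0 for vutiglabridin (adjusted p = 0.0233, not passed on the TPM scale at 0.197).

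Lox, Loxl1 and Loxl2 each had a lower mean with either drug than with vehicle, and Loxl1 and Loxl2 passed the test with vutiglabridin and Loxl2 with semaglutide. Loxl1 (ENSMUSG00000032334, chr9:58287738-58313186, minus strand, GRCm38), which cross-links elastin in particular, had values of 0.66 to 3.60 FPKM (median 2.26) in vutiglabridin livers, 1.68 to 5.08 (median 3.52) in semaglutide livers and 3.47 to 5.70 (median 4.765) in vehicle livers. All vutiglabridin samples but replicate 3 lay below every vehicle sample, and 4 of the 8 semaglutide samples did. The mean with vutiglabridin was 2.25 ± 0.985 FPKM against 4.65 ± 0.705 with vehicle (SD, n = 8 each), 0.485 times as high. Loxl1 fell by 0.85 on the log2 scale with vutiglabridin (SE 0.17, limma adjusted p = 0.00131). Semaglutide livers averaged 3.42 ± 1.06 FPKM, and their difference from vehicle of -0.38 (SE 0.17) did not pass (adjusted p = 0.0964). The difference between the drugs was itself tested, and Loxl1 was lower with vutiglabridin than with semaglutide by -0.47 (SE 0.17, adjusted p = 0.0444). That call is fragile, since it was lost in 10 of the 16 fits that left out 1 sample of these groups, with an adjusted p between 0.0127 and 0.0985, and without vutiglabridin replicate 7 it stood at -0.34 (adjusted p = 0.0956).

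Loxl2 (ENSMUSG00000034205, chr14:69609068-69695834, plus strand), an extracellular cross-linking enzyme of collagen I and of basement membrane collagen IV, was lower with both drugs. Its values were 0.56 to 1.43 FPKM (median 0.965) with vutiglabridin, 0.71 to 1.29 (median 0.945) with semaglutide and 1.63 to 2.40 (median 2.14) with vehicle. Neither drug group overlapped the vehicle group, which was the case for lower values in 0.969% of all tested genes with vutiglabridin and in 1.74% with semaglutide. Loxl2 fell by 0.58 with vutiglabridin (SE 0.09, limma adjusted p = 0.000191) and by 0.64 with semaglutide (SE 0.09, adjusted p = 1.29e-05). The difference between the drugs was 0.06, with a 95% interval of -0.13 to 0.25 (adjusted p = 0.659), so the data do not order them. Exons of Loxl2 share 301 bases with the antisense gene Gm27177, and whether strand was used in the authors' counting is not given in the sources used here.

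Lox (ENSMUSG00000024529, chr18:52516067-52529867, minus strand), the founding member of the family, was the rarest of the 10. It had values of 0.04 to 0.27 FPKM (median 0.150) with vutiglabridin, 0.14 to 0.58 (median 0.300) with semaglutide and 0.34 to 1.01 (median 0.715) with vehicle. The vutiglabridin and vehicle groups did not overlap, and 5 of the 8 semaglutide samples lay below every vehicle sample. Among the tested genes, which leave out Lox, 0.969% had every vutiglabridin value below every vehicle value. The Lox values correspond to about 1 to 18 fragments per vutiglabridin library, 7 to 26 per semaglutide library and 25 to 64 per vehicle library, so counting error is large in both drug groups. Lox was below the level set for testing, and a fit to all 14293 genes without that minimum gave a log2 difference of -0.55 with vutiglabridin (SE 0.07, limma adjusted p = 5.39e-05). The same fit gave -0.36 with semaglutide (SE 0.07, adjusted p = 0.000985) and -0.19 between vutiglabridin and semaglutide (SE 0.07, adjusted p = 0.0635). As a ratio of mean FPKM, Lox stood at 0.22 times vehicle with vutiglabridin and 0.459 times vehicle with semaglutide.

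Of the lysyl hydroxylases, Plod2 was lower than vehicle with vutiglabridin, and the other comparisons of Plod1, Plod2 and Plod3 with vehicle did not pass on the FPKM scale. On the TPM scale Plod3 with vutiglabridin and Plod1 with semaglutide passed as well, both lower. Plod2 (ENSMUSG00000032374, chr9:92542223-92608428, plus strand) hydroxylates the telopeptides of collagen, from which hydroxylysine aldehyde cross-links arise. Its values were 0.09 to 0.71 FPKM (median 0.455) with vutiglabridin, 0.44 to 0.81 (median 0.560) with semaglutide and 0.53 to 1.09 (median 0.790) with vehicle. The vehicle mean exceeded all 8 vutiglabridin values, 5 of which were also under the lowest vehicle value. Plod2 fell by 0.35 with vutiglabridin (SE 0.08, limma adjusted p = 0.00645), to a mean of 0.429 ± 0.230 FPKM against 0.806 ± 0.184 with vehicle (SD, n = 8 each). With semaglutide the mean was 0.578 ± 0.106 FPKM and the difference of -0.19 (SE 0.08) did not pass (adjusted p = 0.0953). It did pass where only those 2 groups were fitted (adjusted p = 0.0330) and where trends with GC content and exon length were removed (adjusted p = 0.0216). The difference between the drugs was -0.16 with a 95% interval of -0.33 to 0.02 (adjusted p = 0.179), so a distinct response of Plod2 to the drugs was not shown. Depth limits this gene too, at about 2 to 36 implied fragments per vutiglabridin library, 15 to 28 per semaglutide library and 29 to 59 per vehicle library. It shares 346 exonic bases with the unclassified transcript Gm38391 on the other strand.

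Plod1 (ENSMUSG00000019055, chr4:147909753-147936767, minus strand), which hydroxylates lysines in the helical part of collagen, was nearly level across the groups. It had 10.26 to 12.83 FPKM (median 11.46) with vutiglabridin, 9.24 to 11.32 (median 10.255) with semaglutide and 10.04 to 12.74 (median 10.685) with vehicle. Its difference from vehicle was 0.05 with vutiglabridin (95% interval -0.06 to 0.16, limma adjusted p = 0.621) and turned to -0.11 on the TPM scale. With semaglutide it was -0.10 (95% interval -0.21 to 0.01, adjusted p = 0.179), and -0.16 on the TPM scale (adjusted p = 0.0381). Plod1 was higher with vutiglabridin than with semaglutide by 0.14 (SE 0.05, adjusted p = 0.0493), with all 8 vutiglabridin samples above the semaglutide mean, but this call was lost in 12 of 16 fits that left out 1 sample and on the TPM scale (0.05). Plod3 (ENSMUSG00000004846, chr5:136987019-136996648, plus strand), which also adds sugars to hydroxylysine, had 6.49 to 8.00 FPKM (median 7.175) with vutiglabridin, 6.57 to 8.54 (median 7.505) with semaglutide and 7.06 to 8.93 (median 7.795) with vehicle. Its groups overlapped widely, with differences from vehicle of -0.12 for vutiglabridin (95% interval -0.24 to 0.0021, adjusted p = 0.183) and -0.07 for semaglutide (95% interval -0.19 to 0.05, adjusted p = 0.429). On the TPM scale the difference for vutiglabridin was -0.28 and passed (adjusted p = 0.0031). Plod3 shares 529 exonic bases with Znhit1 on the other strand.

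The prolyl 4-hydroxylase alpha subunits carry the active site of the enzyme that makes hydroxyproline. P4ha1 (ENSMUSG00000019916, chr10:59323296-59373304, plus strand) had 2.93 to 6.57 FPKM (median 5.235) with vutiglabridin, 3.29 to 4.68 (median 4.10) with semaglutide and 4.91 to 7.92 (median 5.895) with vehicle. Every semaglutide sample lay below every vehicle sample, as in 1.74% of all tested genes, while 4 of 8 vutiglabridin samples did. P4ha1 fell by 0.53 with semaglutide (SE 0.12, limma adjusted p = 0.00222), to 3.99 ± 0.555 FPKM against 6.26 ± 1.16 with vehicle (SD, n = 8 each). With vutiglabridin it averaged 5.07 ± 1.39 FPKM, and its difference of -0.28 (SE 0.12) did not pass (adjusted p = 0.129). On the TPM scale it did pass (-0.46, adjusted p = 0.0228). The difference between vutiglabridin and semaglutide was 0.25 (SE 0.12, adjusted p = 0.134), and without vutiglabridin replicate 7 it was 0.34 and passed (adjusted p = 0.0298). P4ha2 (ENSMUSG00000018906, chr11:54100095-54131665, plus strand) had 1.15 to 2.36 FPKM (median 1.495) with vutiglabridin, 0.92 to 1.98 (median 1.45) with semaglutide and 1.44 to 2.29 (median 1.685) with vehicle. No comparison of P4ha2 passed, and its differences from vehicle were -0.10 for vutiglabridin (95% interval -0.29 to 0.09, adjusted p = 0.533) and -0.19 for semaglutide (95% interval -0.39 to 0.00047, adjusted p = 0.131).

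Serpinh1 (ENSMUSG00000070436, chr7:99345376-99353239, minus strand), a chaperone dedicated to procollagen, was lower with both drugs. It had 6.85 to 21.17 FPKM (median 14.27) with vutiglabridin, 12.12 to 17.83 (median 16.635) with semaglutide and 20.30 to 27.18 (median 24.495) with vehicle. Semaglutide and vehicle did not overlap, which was the case for lower values in 1.74% of all tested genes. With vutiglabridin 1 sample, replicate 3 at 21.17 FPKM, reached into the vehicle range. The mean was 13.9 ± 4.86 FPKM with vutiglabridin, 15.6 ± 2.28 with semaglutide and 24.4 ± 2.35 with vehicle (SD, n = 8 each). Serpinh1 fell by 0.85 with vutiglabridin (SE 0.15, limma adjusted p = 0.000575) and by 0.62 with semaglutide (SE 0.15, adjusted p = 0.00374). The difference between vutiglabridin and semaglutide was -0.23 with a 95% interval of -0.54 to 0.09 (adjusted p = 0.289). The vutiglabridin samples were more dispersed than those of the other groups, with a coefficient of variation of 35.1% against 14.6% with semaglutide and 9.62% with vehicle, a spread that was not tested.

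Bmp1 (ENSMUSG00000022098, chr14:70474558-70520234, minus strand) moved the other way. It had 11.30 to 18.05 FPKM (median 13.60) with vutiglabridin, 9.93 to 12.25 (median 11.04) with semaglutide and 9.43 to 13.09 (median 11.02) with vehicle. All 8 vutiglabridin samples lay above both the semaglutide mean and the vehicle mean, and 5 lay above every sample of either group. Bmp1 rose by 0.28 against vehicle (SE 0.08, limma adjusted p = 0.0233) and by 0.28 against semaglutide (SE 0.08, adjusted p = 0.0144). Semaglutide and vehicle samples had nearly the same mean, 11.1 ± 0.722 and 11.2 ± 1.43 FPKM (SD, n = 8 each), with a 95% interval of -0.17 to 0.17 for their difference. On the TPM scale, with its shift of all genes, the rise against vehicle was 0.14 and did not pass (adjusted p = 0.197), nor did the rise against semaglutide (0.20, adjusted p = 0.0705). The rise against vehicle also missed the threshold without vutiglabridin replicate 7 (0.23, adjusted p = 0.0543), without vutiglabridin replicate 2 (adjusted p = 0.0548) and without vehicle replicates 1 (0.0539) or 5 (0.0508). Centring each library on its median left it at 0.29 (adjusted p = 0.0155).

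The RNAs of the collagens on which these proteins act were lower with both drugs. Col1a1 averaged 6.31 ± 3.39 FPKM with vutiglabridin, 11.02 ± 3.25 with semaglutide and 20.1 ± 5.06 with vehicle (SD, n = 8 each), and the log2 differences from vehicle were -1.63 (limma adjusted p = 4.13e-05) and -0.82 (adjusted p = 0.00728). Col1a2, which encodes the other chain of collagen I, differed by -1.31 with vutiglabridin (adjusted p = 2.42e-05) and -0.89 with semaglutide (adjusted p = 0.000276). Col3a1, for collagen III, differed by -1.59 (adjusted p = 2.65e-05) and -1.07 (adjusted p = 0.000386). Of 6 fibrillar collagen genes tested, 5 were lower with vutiglabridin and 6 with semaglutide, beside 8.78% and 12.7% of all tested genes. None of the 6 was higher, and their median differences were -0.96 and -0.76. Between vutiglabridin and semaglutide the list was mixed. Col1a1 was lower with vutiglabridin (-0.81, limma adjusted p = 0.0091), Col5a3, for a chain of collagen V, was higher (0.46, adjusted p = 0.0336), and Col1a2 (-0.41, 0.0683) and Col3a1 (-0.53, 0.0604) did not pass. Col5a3 was named after its value was seen. The level of each gene was therefore also taken relative to the mean log2 level of Col1a1, Col1a2 and Col3a1 in the same sample, by 2-sided exact permutation tests over the 12870 splits of 8 and 8, adjusted over all tested genes. By that measure 9 of 9 genes were higher with vutiglabridin than with vehicle and 8 of 9 with semaglutide than with vehicle, but so were 99.8% and 97.7% of all tested genes, so the counts say little about these 9. The sizes differed between genes, and part of their order depended on the pseudocount. With vutiglabridin against vehicle, the relative level differed by 0.66 for Loxl1 and 0.67 for Serpinh1 at the low end, by 1.79 for Bmp1 at the high end, and by 0.93 for Loxl2, 1.16 for Plod2, 1.23 for P4ha1, 1.39 for Plod3, 1.41 for P4ha2 and 1.56 for Plod1 between them (exact permutation, adjusted p = 0.000181 for each, from the smallest p these splits can give). With semaglutide against vehicle it differed by 0.29 for Loxl2 (exact permutation, adjusted p = 0.0309), 0.31 for Serpinh1 (0.00821) and 0.40 for P4ha1, which did not pass (0.0584), and by 0.93 for Bmp1 (0.000393). The value of Loxl2 under semaglutide turned to -0.04 with a pseudocount of 0.1 in place of 1. With that pseudocount the values for vutiglabridin against vehicle were 0.53 for Loxl1, 0.73 for Loxl2, 0.77 for Plod2 and 0.78 for Serpinh1. Serpinh1 thus no longer lay below Loxl2 and Plod2, while Bmp1 was still highest at 1.98. Between vutiglabridin and semaglutide 5 of 9 were higher relative to collagen (Plod1, Serpinh1, P4ha1, Bmp1 and Loxl2, each with adjusted p = 0.0489), where 28.3% of all tested genes were, and the count ran from 0 to 8 when samples were left out in turn. It was 0 without vutiglabridin replicate 7.

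Some stellate cell and myofibroblast markers were lower with each drug, and most did not pass. Of 18 markers tested, 7 were lower, none higher and 11 not passed with vutiglabridin (median -0.27, beside 8.78% lower over all tested genes; 12 lower on the TPM scale). With semaglutide 7 were lower, 1 (Hgf, 0.58, limma adjusted p = 3.88e-06) higher and 10 not passed (median -0.31, beside 12.7% lower and 14.3% higher). Hgf, named after its value was seen, encodes hepatocyte growth factor. Their summed level ran from 189 to 292 FPKM with vutiglabridin, 186 to 257 with semaglutide and 259 to 394 with vehicle, and the defining markers Acta2, Des and Lrat were above 0 in every sample. With the 18 markers as the reference in place of the collagens, Serpinh1 (-0.46, exact permutation, adjusted p = 0.00974), Loxl1 (-0.47, 0.0121) and Loxl2 (-0.20, 0.0218) were lower with vutiglabridin than with vehicle, where 1.08% of all tested genes were lower and 72.4% higher. Plod1 (0.43, exact permutation, adjusted p = 0.0106), Plod3 (0.27, 0.0485) and Bmp1 (0.66, 0.0137) were higher by that measure, and Plod2 did not pass (0.04, 0.725). The pseudocount of 1 compresses the change of Plod2, whose mean lay below 1 FPKM in every group. Its log2 difference from vehicle was -0.35 with that pseudocount and -0.91 with 0.1. The marker reference was not run with a smaller pseudocount, so this value does not show that Plod2 kept level with the markers. With semaglutide, Loxl2 (-0.32, exact permutation, adjusted p = 0.00447) and Serpinh1 (-0.30, 0.00838) were lower than vehicle relative to the markers, where 1.14% of all tested genes were lower and 62.2% higher. Plod1 (0.22, 0.0155), Plod3 (0.26, 0.0411) and Bmp1 (0.32, 0.0216) were higher by these exact permutation tests. Between the drugs none of the 9 differed by that measure (exact permutation, smallest adjusted p = 0.134), where 0.458% of all tested genes were higher and 0.493% lower.

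Over all tested genes 6.53% were higher and 8.78% lower with vutiglabridin, and 14.3% higher and 12.7% lower with semaglutide, and the counts for markers of other cell types are read against these shares. Macrophage markers were lower for 9 of 14 tested with vutiglabridin (median -0.48, led by Ccr2, Cx3cr1 and Lyz2) and for 7 of 14 with semaglutide (median -0.39, led by Trem2, Gpnmb and Cd68), and none was higher. Hepatocyte markers were higher for 6 of 11 with each drug (medians 0.37 and 0.28) and lower for none, but on the TPM scale for 3 with vutiglabridin, and for 5 with 1 lower with semaglutide. Their summed level ran from 37920 to 52041 FPKM with vutiglabridin, 37320 to 49828 with semaglutide and 33179 to 41314 with vehicle. Cholangiocyte markers were lower for 2 of 8 with vutiglabridin (Spp1 and Krt19) and higher for 1 of 8 with semaglutide (Pkhd1), and on the TPM scale lower for 6 with vutiglabridin and for none with semaglutide. Spp1 is also in the macrophage list, so it is counted for both cell types. Sinusoidal endothelial markers were higher for 2 of 12 with vutiglabridin (Gpr182 and Clec4g) and higher for 3 and lower for 2 of 12 with semaglutide, a split near that of all genes. On the TPM scale the split with vutiglabridin turned to none higher and 2 lower. The part of these differences in the levels of the 10 genes was not tested.

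Other genes of collagen maturation moved in the same groups. The list held 33 genes, 25 of them tested. With vutiglabridin 9 were lower and 2 higher than with vehicle (median -0.19), beside 8.78% lower and 6.53% higher over all tested genes. With semaglutide 15 were lower and 3 higher (median -0.21), beside 12.7% lower and 14.3% higher. Once trends with GC content and exon length were removed, 9 were lower and 2 higher with semaglutide. Sparc, a collagen-binding matricellular protein, averaged 21.6 ± 5.36 FPKM with vutiglabridin, 25.4 ± 4.55 with semaglutide and 39.3 ± 6.36 with vehicle (SD, n = 8 each), and both drug groups lay wholly below vehicle. Of all tested genes, 0.969% did so with vutiglabridin and 1.74% with semaglutide. Sparc fell by 0.86 with vutiglabridin (limma adjusted p = 0.000141) and by 0.61 with semaglutide (adjusted p = 0.00103). Adamts2, the procollagen N-proteinase that acts at the opposite end of the chain from Bmp1, fell by 0.62 with vutiglabridin (adjusted p = 0.000201) and by 0.38 with semaglutide (adjusted p = 0.00638), while Bmp1 did not fall with either. Pcolce, which enhances the C-proteinase activity of Bmp1, was lower with both drugs (-0.50, adjusted p = 0.0175, with vutiglabridin and -0.41, adjusted p = 0.0345, with semaglutide).

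Among the genes of the prolyl 3-hydroxylase family, P3h3 fell by 0.43 with vutiglabridin (limma adjusted p = 0.00254) and by 0.40 with semaglutide (adjusted p = 0.00213). The transglutaminase Tgm2, which forms protein cross-links by another route, fell by 0.52 with vutiglabridin (adjusted p = 0.00163) and by 0.39 with semaglutide (adjusted p = 0.00747). The peptidyl-prolyl isomerases of the endoplasmic reticulum were mixed. Fkbp10, a partner of lysyl hydroxylation, fell by 0.48 with vutiglabridin (adjusted p = 0.00503) and stood at -0.26 with semaglutide without passing (adjusted p = 0.0903). Fkbp7 fell by 0.48 with semaglutide (adjusted p = 0.0015) and stood at -0.13 with vutiglabridin without passing (adjusted p = 0.457), and the difference between vutiglabridin and semaglutide was itself past the threshold (0.35, adjusted p = 0.0168). Fkbp9 fell by 0.21 with vutiglabridin (adjusted p = 0.0104) and by 0.15 with semaglutide (adjusted p = 0.0468). Colgalt1, which adds galactose to hydroxylysine, fell by 0.15 with vutiglabridin (adjusted p = 0.0179) and by 0.21 with semaglutide (adjusted p = 0.000674).

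The shares of the list that were higher, 2 of 25 and 3 of 25, stood near those of all tested genes (6.53% with vutiglabridin and 14.3% with semaglutide), and on the TPM scale none was higher with vutiglabridin and 1 with semaglutide. Furin, a proprotein convertase that also cuts the Bmp1 precursor, rose by 0.21 with vutiglabridin (limma adjusted p = 0.0135) and by 0.19 with semaglutide (adjusted p = 0.0163). Tmem38b, a cation channel of the endoplasmic reticulum, rose by 0.20 with each drug (adjusted p = 0.0391 with vutiglabridin and 0.0246 with semaglutide). Mia3, which loads large cargo such as procollagen for export, rose by 0.31 with semaglutide (adjusted p = 0.00251) and stood at 0.19 with vutiglabridin without passing (adjusted p = 0.0727). P4hb, the beta subunit that P4ha1 and P4ha2 need and a general protein disulfide isomerase, had far more RNA than either alpha subunit, 634 ± 49.2 FPKM with vutiglabridin, 566 ± 55.3 with semaglutide and 642 ± 37.6 with vehicle (SD, n = 8 each). It fell by 0.19 with semaglutide (adjusted p = 0.0329) and stood at -0.02 with vutiglabridin without passing (adjusted p = 0.883).

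P4ha1, P4ha2, Plod2 and Lox are known targets of hypoxia-inducible factors, so 14 other targets were set beside them. With vutiglabridin 3 were higher and 1 lower than with vehicle (median 0.11, beside 6.53% higher and 8.78% lower over all tested genes), and 2 higher and 3 lower on the TPM scale. With semaglutide 2 were higher and 2 lower (median -0.09), about the share of all genes (14.3% higher and 12.7% lower). Pdk1, a kinase that restrains pyruvate oxidation, rose by 0.53 with vutiglabridin (limma adjusted p = 0.000414) and by 0.48 with semaglutide (adjusted p = 0.000342), and Bnip3, a mitophagy receptor, rose by 0.48 (adjusted p = 0.00567) and by 0.39 (adjusted p = 0.0128). Hexokinase 2 (Hk2) fell by 0.68 with vutiglabridin (adjusted p = 0.000903) and by 0.89 with semaglutide (adjusted p = 1.82e-05). Between the drugs 5 of the 14 were higher with vutiglabridin than with semaglutide and none was lower, led by Vegfa (0.44, adjusted p = 0.0016), beside 11.9% higher and 12.6% lower over all tested genes. With quantile normalization 6 were higher and 2 lower.

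The genes were also set against Col1a1 within each group, where treatment does not differ. In vutiglabridin livers Col1a1 itself ran from 2.47 to 12.15 FPKM, with replicate 7 lowest and replicate 3 highest. Over these 8 samples Loxl2 correlated with Col1a1 at r = 0.963 (exact permutation p = 0.000347; rho = 0.898, p = 0.00516; r = 0.966 without replicates 3 and 7, the farthest from the Col1a1 median). Loxl1 did so at r = 0.945 (exact p = 0.000248; rho = 0.976, p = 0.000397; r = 0.938 without those 2) and Serpinh1 at r = 0.949 (exact p = 0.000397; rho = 0.952, p = 0.00114; r = 0.894). Bmp1 ran opposite to Col1a1 at r = -0.899 (exact p = 0.00367; rho = -0.952, p = 0.00114; r = -0.847). Plod2 (r = 0.784, rho = 0.778) and P4ha1 (r = 0.764, rho = 0.738) had lower coefficients, at 0.639 and 0.521 without the 2 samples. Plod1 (0.135), Plod3 (0.260) and P4ha2 (-0.102) were lower still over all 8 samples, but stood at 0.644, 0.751 and 0.695 without those 2, above Plod2 and P4ha1, so the order of these 5 genes rests on the 2 samples.

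No relation passed once adjusted over all 11561 genes tested against Col1a1 in the group, and neither did any other gene (0 genes by Pearson and by Spearman in each group). At an unadjusted exact permutation p under 0.05, 6 of the 9 genes passed among vutiglabridin samples by either coefficient, beside 16.6% of all genes by Pearson. Among semaglutide samples 3 of 9 passed by Pearson and 1 by Spearman, beside 5.68% of all genes by Pearson, and among vehicle samples 1 and 0, beside 3.58%. In semaglutide livers Loxl1 stood at r = 0.923 (0.686 without replicates 1 and 2), Plod2 at 0.875 (0.186 without them, so that it rests on those 2) and Serpinh1 at 0.776 (0.591). Loxl2 was lower there, at 0.489 (rho = 0.204, and r = 0.135 without them), and P4ha1 stood at -0.293 (0.301). In vehicle livers Serpinh1 stood at 0.813 (0.817 without replicates 2 and 7), Loxl2 at 0.687 (0.562), Plod2 at 0.611 (0.386) and Loxl1 at 0.524 (0.763). P4ha1 was near 0 among vehicle samples, at 0.029 (-0.247). Bmp1 stood at 0.556 with semaglutide and 0.284 with vehicle, so its opposite course was seen among vutiglabridin samples, and a difference between groups in these correlations was not tested.

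**Figure D3:**
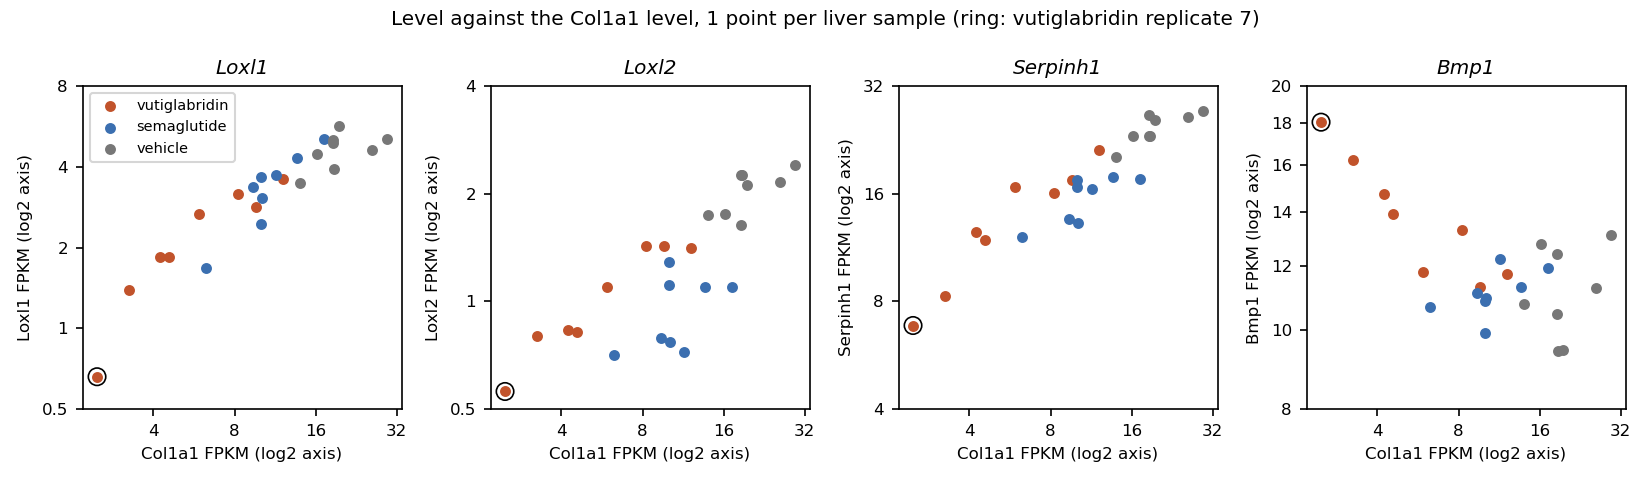
FPKM of Loxl1, Loxl2, Serpinh1 and Bmp1 against FPKM of Col1a1, both on log2 axes, with 1 point per liver sample (vutiglabridin orange, semaglutide blue, vehicle grey) and a ring around vutiglabridin replicate 7. Loxl1, Loxl2 and Serpinh1 climb with Col1a1 among vutiglabridin samples (r = 0.945, 0.963 and 0.949), and Bmp1 descends (r = -0.899).

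Correlations were also taken over the deviations of all 24 samples from their group means, where shared depth and cell composition also enter. Serpinh1 went with Col3a1 at r = 0.92, Col1a1 at 0.89, Loxl1 at 0.86, Loxl2 at 0.83 and Plod2 at 0.80. Loxl2 went with Col3a1 at 0.89 and Loxl1 with Col1a1 at 0.88. Plod1, Plod3 and P4ha2 lay between -0.14 and 0.22 with Col1a1 and Col3a1, and between 0.16 and 0.42 without vutiglabridin replicate 7. P4ha1 stood at 0.44 with Col1a1 and 0.26 without that library, whereas Loxl1 (0.88 and 0.85), Loxl2 (0.80 and 0.75) and Plod2 (0.75 and 0.68) moved less. Bmp1 went against Serpinh1 at -0.62, and at -0.45 without vutiglabridin replicate 7, whereas Serpinh1 with Col1a1 was 0.86 without it. Lox, which few fragments measure, stood at 0.38 with Col1a1 and 0.43 with Serpinh1.

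**Figure D4:**
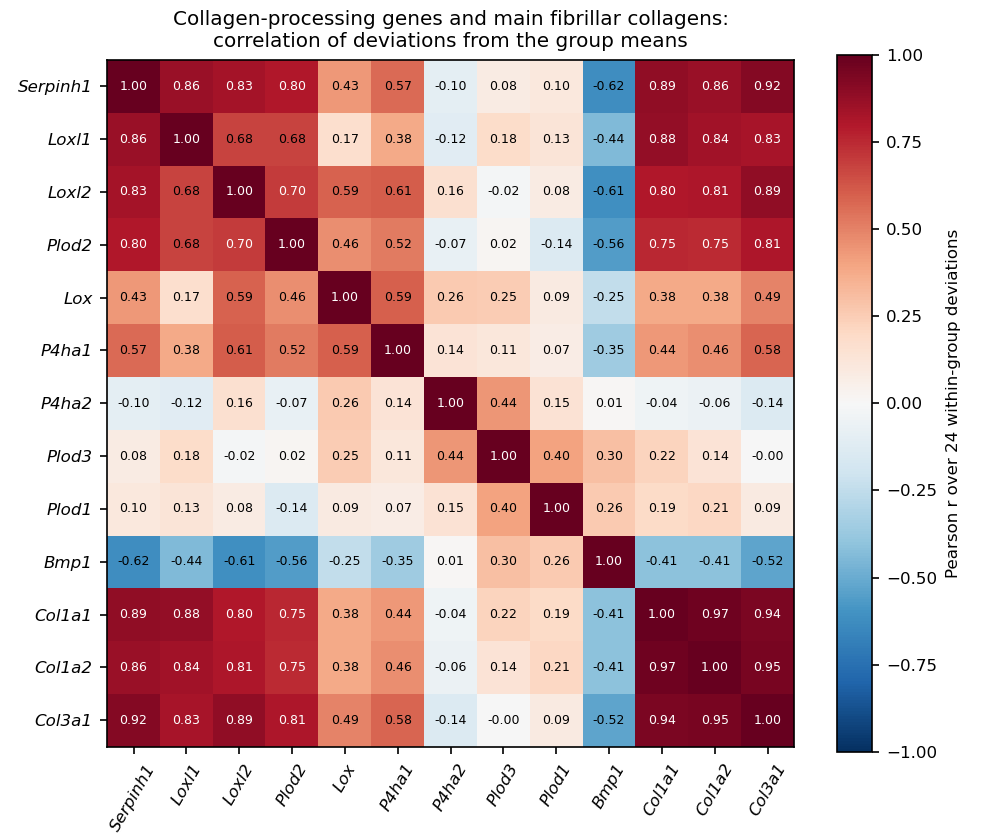
Pearson correlation of the deviations from group means of log2(FPKM + 1) over 24 liver samples, for the 10 genes and Col1a1, Col1a2 and Col3a1. Red is positive and blue negative. Serpinh1, Loxl1, Loxl2 and Plod2 form a red block with the 3 collagens. P4ha2, Plod3 and Plod1 are pale against it (between -0.14 and 0.22 with Col1a1 and Col3a1, and between 0.16 and 0.42 without vutiglabridin replicate 7). Bmp1 is blue against the block (-0.62 with Serpinh1, and -0.45 without that library), and positive with Plod3 (0.30) and Plod1 (0.26). Within groups, Bmp1 with Col1a1 stood at -0.899 with vutiglabridin, 0.556 with semaglutide and 0.284 with vehicle.

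By the same measure over the tested genes, the nearest neighbours of each gene were as follows. For Serpinh1 they were Col3a1 (0.92), Mob3a (0.89) and Col1a1 (0.89), for Loxl2 Col3a1 (0.89), Col4a1 (0.84) and Sparc (0.84), and for Loxl1 Islr (0.90), Dtx3 (0.90) and Col1a1 (0.88). For Plod2 they were Scd2 (0.82), Col3a1 (0.81) and Serpinh1 (0.80). Bmp1 lay nearest to Tfr2 (0.80), the transferrin receptor of hepatocytes, and to Plg (0.80) and Vtn (0.77), for the plasma proteins plasminogen and vitronectin. P4ha1 lay nearest to Aldh18a1 (0.77) and Dnajb1 (0.74), and P4ha2 to Zbtb18 (0.86), Dusp3 (0.79) and Atxn7l3 (0.76). Plod1 lay nearest to Gar1 (0.75), Batf3 (0.74) and Ecm1 (0.74), Plod3 to Ier5 (0.83), Dram1 (0.80) and Plpp2 (0.79), and Lox to Ywhah, C9orf72 and Sec11a (0.69 each). Over all 24 samples, collagen genes were thus among the 3 nearest neighbours of Serpinh1, Loxl1, Loxl2 and Plod2, and not of the other 6 genes. The neighbours were not taken again without vutiglabridin replicate 7 or within each group.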

How the data were processed

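Libraries were made from poly(A) RNA with a stranded Illumina kit and read as 101-base pairs, per the labels. The authors deposited 1 FPKM value per gene and sample. The submitters' processing notes list HISAT2, StringTie and DESeq2; which step each served, with which version, build or filter, is not given in the sources used here. All 14293 identifiers and symbols matched GENCODE M21 on GRCm38, which gave the coordinates. FPKM divides by the fragments of the library, so abundant genes shift all others.

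Values were taken as log2(FPKM + 1). The test covered genes reaching 0.5 FPKM in 8 or more samples, with limma 3.58.1 (R 4.3.3; moderated, mean trend, 2-sided) fitted to all 24 samples with the group as the only term, and Benjamini-Hochberg adjustment within each comparison over 11562 genes at a threshold of 0.05. The script was tested on simulated data. Exact permutation tests used Python 3.11.15 with numpy 2.4.6, over 12870 splits or 40320 pairings. Their p-values were adjusted over all tested genes, where the plan had been to adjust over the 30 tests of the list. Lox was below the filter and was tested in the fit without it. Alternatives were pseudocounts of 0.1 and 0.5, a filter on the mean (1 FPKM or more) or none, sample weights, a robust spread, median centring, quantile normalization, TPM, correction for GC content and exon length (splines with 5 degrees of freedom), the replicate number as a block, the 2 compared groups alone, other denominators, and each sample left out in turn.

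The 10 genes and all lists were chosen with earlier results of these data known, so their counts are descriptions. The genes to be named were all 10 genes, Col1a1, Col1a2 and Col3a1, the 6 other maturation genes with the lowest p in each comparison with vehicle, the 3 hypoxia-inducible factor targets and the 3 markers per cell type with the lowest p, and the 3 nearest neighbours of each gene. Pcolce, Furin, Tmem38b, P4hb, Hgf and Col5a3 lie outside that rule and were chosen after their values were seen. Aldoa occupies 2 rows and was left out of the target list. Col2a1, Col11a1, Tll1, Tll2, Ctage5 and Tf were not analysed here, and protein sequences were not used here. P4ha3, Colgalt2, Loxl4, Pcolce2, Adamts3, Car9, Itgam and Cftr were among the listed genes below the filter. Some items are not reported here.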

Additional observations from a re-analysis of the deposited data

Results flagged for a closer look

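In 1 of the 30 sets of 8 values looked at (10 genes in 3 groups), a sample stood apart from the rest of its group by a gap that chance gives in about 1 set in 20. Plod2 in semaglutide replicate 2 was at 0.81 FPKM, the highest of its group, while the other 7 semaglutide samples lay between 0.44 and 0.60 FPKM. The gap was 0.568 of the whole range of the group. That sample also had the highest Loxl1 value of the group, at 5.08 FPKM, and the second highest Serpinh1 value, at 17.63 FPKM.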

How the results depend on the processing

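With vutiglabridin against vehicle, Loxl1, Loxl2 and Serpinh1 passed in every alternative run, with each sample left out included. So did Loxl2, P4ha1 and Serpinh1 with semaglutide. Plod2 passed with vutiglabridin in every alternative that tested it, but the filter on the mean (1 FPKM or more) left it out. Of the alternatives run for single genes, 724 kept direction and side of the threshold, 38 lost the threshold, 10 gained it and 11 changed sign. The cause of these changes was not tested. Counts of the 9 genes that passed ran from 4 to 5 for vutiglabridin against vehicle, stayed at 3 for semaglutide against vehicle and ran from 1 to 3 between the drugs when samples were left out in turn. On the TPM scale 6 were lower and none higher for vutiglabridin against vehicle, where 4 were lower and 1 higher on the FPKM scale. Semaglutide against vehicle gave 5 with only those groups fitted. Vutiglabridin against semaglutide gave 1 with no filter, with TPM, with quantile normalization and with only those groups fitted. TPM gave 2964 genes for vutiglabridin against vehicle over all tested genes. Relative to collagen, 5 genes passed for semaglutide against vehicle with the stellate cell markers as the denominator, and between the drugs 9 with Col1a1 alone, 0 with the stellate cell markers and 0 to 8 when samples were left out. Signs turned for values near 0: Plod1 under vutiglabridin (-0.11 with TPM), Plod3 under semaglutide (0.0051 with GC content and exon length removed, also with the replicate block) and Bmp1 under semaglutide (0.0061 with median centring, and -0.034 to 0.028 over samples left out). Correlations with Col1a1 turned without the 2 farthest samples for P4ha2 under vutiglabridin (0.695), Plod3 (-0.323) and P4ha1 (0.301) under semaglutide, and Plod1 (-0.279), Plod3 (-0.462), P4ha1 (-0.247) and Bmp1 (-0.364) under vehicle. The difference of Bmp1 from vehicle with vutiglabridin also missed the threshold with sample weights (adjusted p = 0.0621) and with only those groups fitted (0.0537).

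Replicate numbers recur in each group, but samples with the same number did not deviate together (median r = -0.0155 over 24 pairs, -0.247 to 0.286, beside -0.0124 over 168 pairs with different numbers). With the replicate number as a block, 1723, 3073 and 2748 genes passed for vutiglabridin against vehicle, semaglutide against vehicle and vutiglabridin against semaglutide, and among the 9 genes only Plod1 between the drugs (0.14, adjusted p = 0.0619) lost its call. Depth limits Lox and Plod2 in particular.

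Marker counts moved as well. With TPM, 12 stellate cell, 6 cholangiocyte and 3 hepatocyte markers passed for vutiglabridin against vehicle, beside 7, 2 and 6. For semaglutide against vehicle, 11 other maturation genes passed with GC content and exon length removed, beside 18, and the 1 cholangiocyte call (Pkhd1) was lost there, with TPM and with a pseudocount of 0.1. Between the drugs, 8 hypoxia-inducible factor targets passed with quantile normalization, 6 higher and 2 lower with vutiglabridin, beside 5, all higher.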
